A study of Homo sapiens with 15 samples.

Results

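The chromosome 19 miRNA cluster (C19MC) was followed through 5 kinds of small RNA library from HEK293 derivatives. Its members were taken by name as every counted miRNA named miR-498, miR-512, miR-1283, miR-1323 or miR-515 to miR-527, with any letter and either arm. This gave 27 of the 2424 mature miRNAs counted in either table, with 26 of 2418 in the knockdown table and 22 of 2189 in the RNA immunoprecipitation (RIP) table. Of these, 21 were in both tables, miR-515-3p was listed in the RIP table only, and miR-518e-3p, miR-520e, miR-520f-5p, miR-524-3p and miR-525-3p were listed in the knockdown table only.

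C19MC is a run of closely related miRNA genes found in primates. It arose by repeated duplication, lies among Alu repeats and is known mainly from the placenta, where it is transcribed from the paternal allele, and from embryonic stem cells. Each hairpin can give a 5p and a 3p miRNA, and bases 2 to 8 of a mature miRNA, the seed, do most of the pairing with target mRNAs. N6-methyladenosine (m6A) is a methyl mark on adenosine in RNA, and FTO is an enzyme that can remove it.

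The cells were FTO1C1, FTO2D4 and FTO3C3, clones of the Flp-In 293 T-Rex line, an embryonic kidney line, used uninduced for the knockdown. For the knockdown, each clone received scrambled siRNA or FTO-specific siRNA at 10 nM for 48 h, which gave 3 libraries per group. For the RIP, small RNA of each clone was sequenced as input or after precipitation with an antibody against m6A or a non-specific mouse IgG. This again gave 3 libraries per group. No siRNA is named for these libraries, and whether the clones were otherwise treated or induced is not given. FTO mRNA is not measured by small RNA libraries, so the knockdown itself could not be checked in these counts. The 3 libraries of a group are 3 clones of one line. With the clone as a block, the tests compare the groups within each clone. Their spread estimates are moderated over all miRNAs fitted. SEs and p values therefore do not measure only how a miRNA's difference varies between clones.

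Total miRNA reads ranged from 1991317 to 3876806 in the knockdown libraries and from 186446 to 4973238 in the RIP libraries, the lowest being IgG of FTO3C3. Levels are reads per 1000000 miRNA reads (RPM), and mature lengths of 21 to 24 bases make them close to levels per length. One miRNA outside the cluster, miR-6080, took 58 to 71.6% of the reads in IgG, 41.3 to 47.8% in m6A and 15.5 to 28.4% in input, against 2.05 to 4.18% in the knockdown libraries, and its part in the RPM of the RIP libraries is given beside the sums. In the knockdown libraries miR-10a-5p alone held 22.1 to 30.6% of the reads.

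In the RefSeq table (build GRCh38.p14) the cluster has 45 hairpin genes with 65 mature names between positions 53666679 and 53762430 of chromosome 19, a stretch of 95.8 kb. A mature sequence was found under the same name for 24 of the 27 listed miRNAs, 9 of them at more than 1 locus. None was found for miR-498, miR-520e and miR-522-3p, so the sequence comparisons do not cover them. The sequences that the results turn on follow, 5′ to 3′, with the seed in capitals. The first pair are the most abundant miRNAs of the cluster in the knockdown libraries, miR-520d-3p at chr19:53720149-53720170 and miR-516b-5p at chr19:53725457-53725478 and chr19:53736860-53736881, all on the plus strand.
miR-520d-3p: aAAGUGCUucucuuuggugggu
miR-516b-5p: aUCUGGAGguaagaagcacuuu

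The next 2 pairs share a seed within each pair and held the largest m6A to IgG differences, from single loci at chr19:53679953-53679974 (miR-519e-5p), chr19:53697547-53697567 (miR-525-5p) and chr19:53690895-53690915 (miR-520a-5p), and from both miR-515 hairpins, the first at chr19:53679016-53679039.
miR-519e-5p: uUCUCCAAaagggagcacuuuc
miR-515-5p: uUCUCCAAaagaaagcacuuucug
miR-525-5p: cUCCAGAGggaugcacuuucu
miR-520a-5p: cUCCAGAGggaaguacuuucu

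The third set are miRNAs whose m6A and IgG levels were close or whose IgG level was the higher, miR-518b at chr19:53702787-53702808, miR-523-3p at chr19:53698437-53698459 and miR-512-5p, with its first locus at chr19:53666692-53666714.
miR-518b: cAAAGCGCuccccuuuagaggu
miR-523-3p: gAACGCGCuucccuauagagggu
miR-512-5p: cACUCAGCcuugagggcacuuuc

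The seed of miR-520d-3p, AAGUGCU, is also that of miR-520a-3p and of 12 mature names in all, among them miR-372-3p of the neighbouring miR-371 to miR-373 cluster and miR-302a-3p, both known from pluripotent cells. The other shared seeds were UCUCCAA (miR-515-5p and miR-519e-5p), UCCAGAG (miR-520a-5p and miR-525-5p) and AAGGCGC (miR-524-3p and miR-525-3p), each found in 2 mature names of the whole table. The remaining 16 miRNAs with a sequence had 16 different seeds. Away from the seed, the 5p miRNAs resemble each other near their 3′ end. The letters GCACUUU were found in 8 of 11 matched 5p miRNAs and in 0 of 9 matched 3p miRNAs, against 0.844% of the 2370 mature names in the table. These letters end the printed sequences of miR-516b-5p, miR-519e-5p and miR-512-5p or stand close to the end, whereas that of miR-520a-5p does not hold them.

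Close relatives can hold each other's reads, because a read needed exact matches of at least 7 bases that covered at least 17 bases. Measured the same way between mature sequences, 10 of the 24 miRNAs had another C19MC sequence at 17 or more covered bases. For miR-519e-5p this was miR-515-5p, with 20 bases, and for miR-520a-5p it was miR-525-5p, with 18 bases. miR-520g-5p had 21 bases in common with the sequence of miR-518d-5p, miR-520c-5p and miR-526a, which are not listed. miR-516b-5p had 18 with miR-518c-5p, and miR-518b had 17 with miR-518c-3p, which is not listed. Values of such miRNAs are therefore uncertain with respect to their relatives. For 0 of the 24 did a miRNA outside the cluster reach 17 bases, and the highest was 16 bases, for miR-520d-3p with miR-302a-3p and for miR-520a-5p with miR-6873-5p.

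The listed members of the cluster took a small share of all miRNA reads. Sums cover only these 27 miRNAs and not all 65 mature names. The 16 names that share their sequence with another name are not among the 24 matched. Summed, the listed members held 411.2, 387.6 and 603.1 RPM in the scrambled siRNA libraries of FTO1C1, FTO2D4 and FTO3C3, and 506.6, 610.8 and 584.8 RPM in the FTO siRNA libraries. The FTO siRNA libraries were higher in FTO1C1 and FTO2D4 and lower in FTO3C3, so the groups overlapped. The input libraries held 257, 300.1 and 221.3 RPM, the IgG libraries 406, 451.3 and 568.5 RPM, and the m6A libraries 790.2, 1001 and 1047 RPM. Every m6A library was thus above every IgG library and every IgG library above every input library. The lowest total of a listed miRNA over all RIP libraries was 82 reads, and 89 reads among the members. Members with fewer reads are absent from these sums, and the deepest RIP library, at 4973238 reads, was m6A of FTO3C3. With totals that leave out miR-6080 the means of the 3 groups were 1702 RPM in m6A, 1368 RPM in IgG and 343.2 RPM in input, and the single m6A values of 1514 to 1885 RPM then overlapped the IgG values of 1161 to 1590 RPM.

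**Figure D1:**
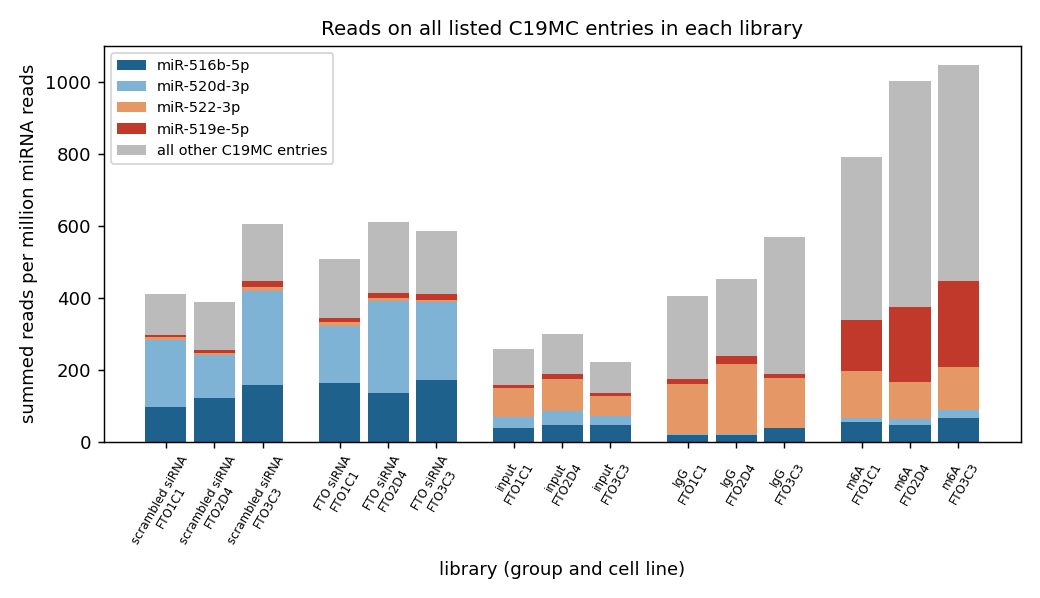
Summed level of all listed C19MC miRNAs in each of the 15 libraries, in RPM (vertical axis), with 4 miRNAs in colour and the rest in grey. miR-520d-3p and miR-516b-5p fill most of the knockdown bars, miR-522-3p leads the input and IgG bars, and miR-519e-5p leads the m6A bars, which reach 790.2 to 1047.

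A pair of miRNAs made up most of the cluster's reads in the knockdown libraries. miR-520d-3p held 186.4, 119.7 and 260.1 RPM with scrambled siRNA, and miR-516b-5p held 97, 120.5 and 157.2 RPM. Their levels overlapped, and either could lead, since miR-516b-5p was the higher of the pair in FTO2D4 with scrambled siRNA. miR-516b-5p ranked between 279 and 323 among the 2418 miRNAs in the scrambled siRNA libraries. Next came miR-521, whose 2 genes give the same mature sequence, with 14.3, 17.9 and 23.1 RPM. Then followed miR-520g-5p at 8.25 to 20.6 RPM, miR-519e-5p at 6.6 to 17.6 RPM and miR-517-5p at 9.33 to 13.1 RPM, neighbours that did not differ beyond their spread. The lowest were miR-518b, at 7, 2 and 2 reads, and miR-518e-3p, at 2, 0 and 1 reads, where a count of 0 in FTO2D4 allows a level of up to 1.22 RPM.

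By the rule that a miRNA counts as expressed at 15 RPM or more in all 3 scrambled siRNA libraries, 2 of the 26 passed, miR-516b-5p and miR-520d-3p, against 42.7% of all miRNAs in the table. Just below the rule stood miR-521, with 14.3 RPM in FTO1C1, and without that clone 4 passed. The median level of the cluster's members was 5.9 RPM with scrambled siRNA, against 15.1 RPM over all miRNAs of the table, and 20 of the 26 had a mean under 10 RPM. At such levels a library holds few reads of a miRNA, with a median of 14.5 reads with scrambled siRNA, and the coefficient of variation between clones had a median of 27.9%.

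**Figure D2:**
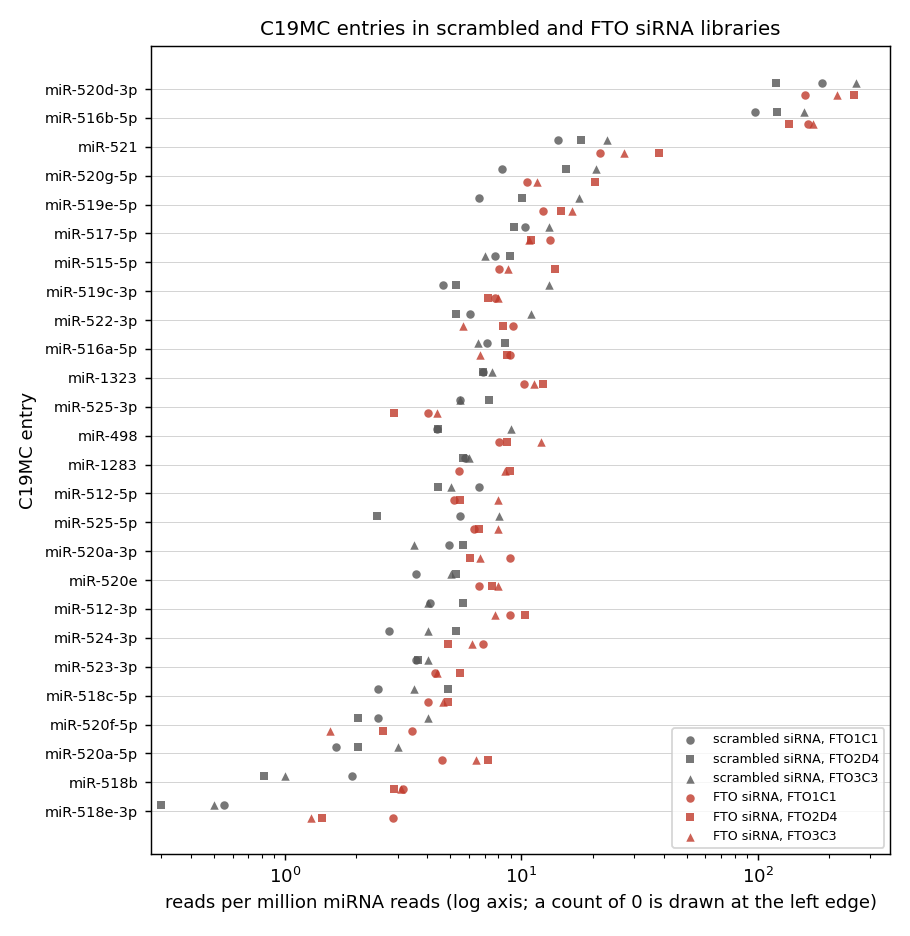
Level of each of the 26 C19MC miRNAs in the 6 knockdown libraries, in RPM on a log axis (horizontal), ordered by the scrambled siRNA mean, with colour for the siRNA and shape for the clone. Only miR-520d-3p and miR-516b-5p stand above 90, most of the others lie below 20, and the red points of miR-520a-5p and miR-518b lie to the right of their grey points.

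After FTO siRNA, 1 of the 24 miRNAs tested rose and 0 fell at an adjusted p under 0.05 (quasi-likelihood test of edgeR, Benjamini-Hochberg adjusted), against 4.97% of 2374 miRNAs that rose and 0.505% that fell. An unadjusted p under 0.05 was reached by 7 of the 24. DESeq2 gave an adjusted p to 2 miRNAs of the cluster and called 0, against 3.88% higher and 6.92% lower among those with one, and 0 had an unadjusted p under 0.05 with it. The median log2 fold change was 0.35 over the cluster and 0.29 over all miRNAs tested, so the cluster moved by about as much as the table as a whole. When trimmed mean of M-values (TMM) factors replaced total reads, the median of all miRNAs went to 0.00 and that of the cluster to 0.06. With TMM factors 0 of the 24 were called in either direction, against 0.885% higher and 1.43% lower among all, and 3 had an unadjusted p under 0.05.

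miR-520a-5p was the one that rose. It had 1.65, 2.03 and 3.01 RPM with scrambled siRNA and 4.6, 7.22 and 6.45 RPM after FTO siRNA, with the clones in the order FTO1C1, FTO2D4 and FTO3C3. All 3 FTO siRNA libraries were above all 3 scrambled siRNA libraries, at 16 to 25 reads against 5 to 6 reads. The log2 fold change was 1.45 ± 0.36 (SE, n = 3 pairs) with an adjusted p of 0.0452 by edgeR. This call was lost with TMM factors (1.16, adjusted p 0.129), without the block on the clone (1.51, adjusted p 0.0752), without FTO1C1 (1.45, adjusted p 0.29) and without FTO2D4 (1.27, adjusted p 0.169). Its relative miR-525-5p, with the same seed, had 5.5, 2.44 and 8.03 RPM with scrambled siRNA and 6.32, 6.64 and 8 RPM with FTO siRNA. Those groups overlapped, with a log2 fold change of 0.42 ± 0.33 (adjusted p 0.434, edgeR).

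The next largest differences were those of 2 miRNAs that did not pass the test. miR-518b had 1.92, 0.812 and 1 RPM with scrambled siRNA and 3.16, 2.89 and 3.1 RPM with FTO siRNA (log2 1.20 ± 0.47, adjusted p 0.141, edgeR). miR-512-3p, the first 3p miRNA of the cluster along the chromosome, had 4.12, 5.68 and 4.02 RPM against 8.91, 10.4 and 7.74 RPM (log2 0.97 ± 0.27, adjusted p 0.0656, edgeR). In both the groups did not overlap.

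Non-overlap by itself was common. Of the 26, 8 had all FTO siRNA libraries above all scrambled siRNA libraries (miR-1323, miR-512-3p, miR-518b, miR-518e-3p, miR-520a-3p, miR-520a-5p, miR-520e and miR-523-3p), while 26.3% of all listed miRNAs did so. In the other direction stood miR-525-3p alone, against 1.94% of the table. Its levels were 5.5, 7.31 and 5.52 RPM with scrambled siRNA and 4.02, 2.89 and 4.39 RPM with FTO siRNA, lower in 3 of 3 clones. The log2 fold change of miR-525-3p was -0.69 ± 0.33 (adjusted p 0.216, edgeR), so the difference did not pass the test. miR-524-3p, with the same seed, had 2.75, 5.28 and 4.02 RPM against 6.9, 4.91 and 6.19 RPM, in which FTO2D4 went the other way from the other two clones.

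The abundant pair did not pass either. miR-516b-5p went from 97, 120.5 and 157.2 RPM to 162.9, 135.1 and 171 RPM (log2 0.34 ± 0.19, adjusted p 0.269, edgeR). It was higher in 3 of 3 clones, but the groups overlapped. miR-520d-3p had 158.9, 254.4 and 216.4 RPM with FTO siRNA (log2 0.19 ± 0.25, adjusted p 0.663, edgeR), below its scrambled siRNA level in FTO1C1 and FTO3C3 and 2.12 times it in FTO2D4. Its fold change turned to -0.10 with TMM factors and to -0.25 without FTO2D4. miR-521 reached 21.6, 38.4 and 27.1 RPM, higher in 3 of 3 clones (log2 0.65 ± 0.22, adjusted p 0.106, edgeR). Without FTO3C3 miR-521 passed, at 0.85 with an adjusted p of 0.0474. miR-519c-3p (log2 0.10 ± 0.32) and miR-520g-5p (log2 -0.02 ± 0.28) differed by less than their errors, and both changed sign when single clones were left out.

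Members of the related seed families were measured beside the cluster. Of the 8 miRNAs of the neighbouring miR-371 to miR-373 cluster, 0 were called in either direction after FTO siRNA, with a median log2 fold change of 0.43. Of the 9 tested among miR-302 and miR-367, 1 rose and 0 fell, and of the 8 of the miR-17 family 0 were called. The named relative miR-372-3p differed by 0.60 ± 0.18 on the log2 scale (adjusted p 0.0815, edgeR). Of the lists of other tissues, 1 of 6 blood miRNAs was higher, and 0 of 2 tested muscle miRNAs, 0 of 2 tested neuronal miRNAs and 0 of 1 liver miRNA, miR-122-5p, were called. Of the 4 kidney line miRNAs 1 was lower. Among all miRNAs tested the shares were the 4.97% and 0.505% given above. The neuronal miRNA miR-9-5p was above every member of C19MC, at 606.1 to 873 RPM with scrambled siRNA.

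**Figure D3:**
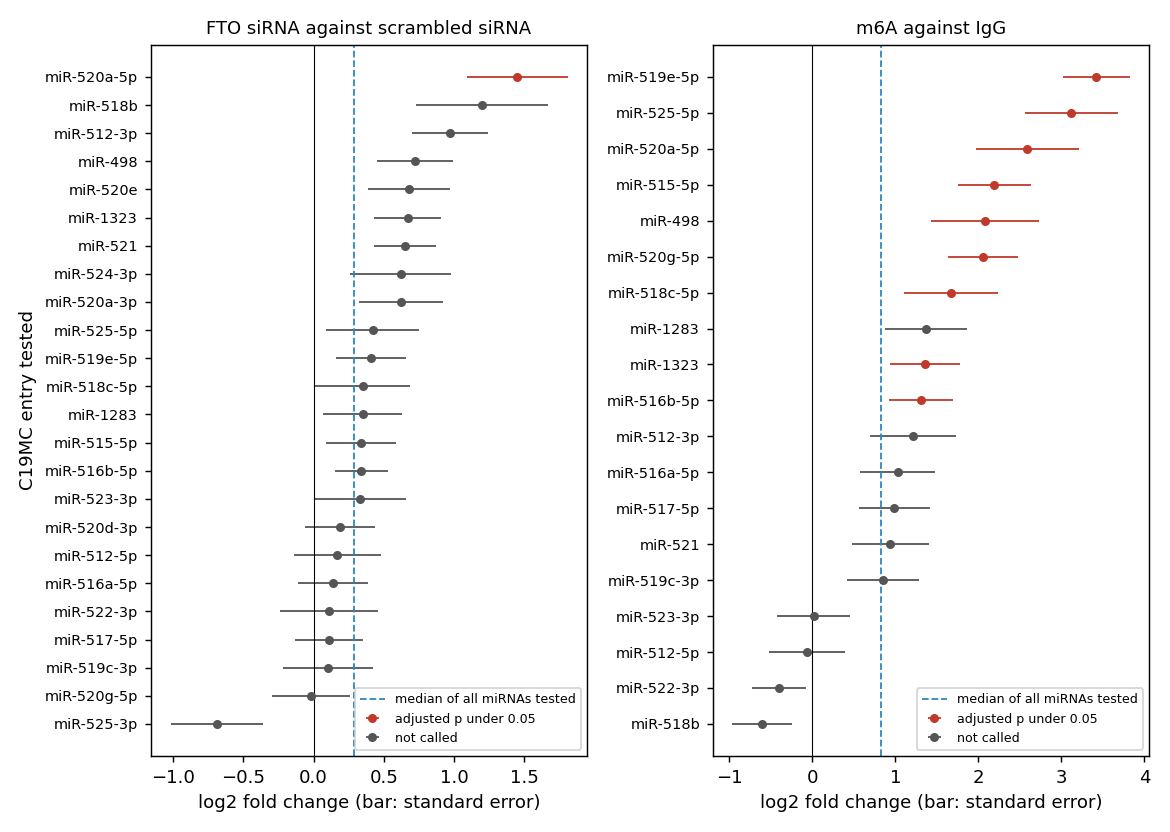
Log2 fold change (horizontal axis, bars are standard errors) of the tested C19MC miRNAs for FTO siRNA against scrambled siRNA (left, 24 miRNAs) and for m6A against IgG (right, 19 miRNAs), by edgeR on total miRNA reads. The dashed line is the median of all miRNAs tested, 0.29 on the left and 0.83 on the right, and red marks an adjusted p under 0.05, which 1 miRNA reaches on the left and 9 on the right.

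Before precipitation the order of the members was another one than in the knockdown libraries. The 2 tables come from separately prepared libraries, so this is a description without a test. In the input libraries miR-522-3p led with 79.5, 89.1 and 55.3 RPM, at 5.28 to 11 RPM in the scrambled siRNA libraries. miR-516b-5p followed with 38.3, 46.6 and 44.7 RPM and miR-520d-3p with 29.8, 38.4 and 27.3 RPM, each below its own level in every knockdown library. The other 19 members had input means of at most 10.1 RPM, that of miR-523-3p, and neighbours among them did not differ beyond their spread.

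In the m6A libraries 9 of the 19 C19MC miRNAs tested were higher than in the IgG libraries and 0 were lower (edgeR, adjusted p under 0.05), against 38.6% higher and 1.27% lower among 2054 miRNAs. An unadjusted p under 0.05 was reached by 13 of the 19. The filter on low counts asked for enough reads in any 3 of the libraries compared, so a miRNA could enter through m6A levels alone. Of the 9, only miR-516b-5p, at 17.5, 17.8 and 37.5 RPM, had enough reads in all 3 IgG libraries. The others entered through their m6A levels, among them miR-520a-5p, with 2, 6 and 0 reads in IgG. The 9 are thus largely miRNAs selected by the group where they were high. The share over all miRNAs includes such miRNAs too. The other comparisons share this limit. Without FTO2D4 or without FTO3C3 the number higher was 5. The median log2 fold change was 1.31 over the cluster and 0.83 over all miRNAs tested. With TMM factors, which moved the median of all miRNAs to 0.06, 4 were higher and 2 were lower, against 22.1% and 14.7%. The 4 were miR-519e-5p, miR-525-5p, miR-515-5p and miR-520g-5p, and the 2 were miR-518b and miR-522-3p. DESeq2 called 2 higher, miR-519e-5p and miR-525-5p, and the same 2 lower, of 18 with an adjusted p, against 17.6% and 12.3%.

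miR-519e-5p had the largest difference. Its m6A levels were 142.2, 206.9 and 237.5 RPM, its IgG levels 14.8, 24.2 and 10.7 RPM, and its input levels 8.52, 12.3 and 7.33 RPM in FTO1C1, FTO2D4 and FTO3C3. Each m6A library was far above all IgG and input libraries, and the IgG value of FTO3C3 rests on 2 reads. The log2 fold change over IgG was 3.42 ± 0.40 (adjusted p 0.000215, edgeR), and the ratios within the clones were 9.59, 8.57 and 22.1. The call held in all the alternatives tried, with adjusted p values between 6.42e-09 and 0.0151. The rule of 100 RPM or more in all 3 m6A libraries with a mean ratio of 2 or more over IgG was met by miR-519e-5p alone among the 22 members, against 11.8% of the RIP table. miR-522-3p also reached 100 RPM in all m6A libraries, but not the ratio.

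miR-515-5p, with the same seed and 20 bases in common by the matching rule, had lower levels in the same direction. It had 40.4, 28.6 and 44.6 RPM in m6A, 8.09, 6.36 and 10.7 RPM in IgG and 9.23, 6.17 and 10 RPM in input. All m6A libraries lay above the others, while IgG and input overlapped. The log2 fold change over IgG was 2.19 ± 0.44 (adjusted p 0.0042, edgeR), with ratios of 4.99, 4.5 and 4.16. With DESeq2 it was not called (1.40, adjusted p 0.111). The other arm, miR-515-3p, had 3.51, 21.3 and 7.24 RPM in m6A and 4.05, 2.54 and 10.7 RPM in IgG. It was left out by the filter on low counts, and without that filter it was not called (log2 1.22 ± 0.86, adjusted p 0.287, edgeR).

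The other pair with a shared seed also differed. miR-525-5p had 43.9, 56.5 and 54.7 RPM in m6A against 5.39, 2.54 and 16.1 RPM in IgG (log2 3.12 ± 0.56, adjusted p 0.00237, edgeR). Its ratios of 8.14, 22.2 and 3.4 were uneven, on IgG counts of 4, 2 and 3 reads. miR-520a-5p had 24.6, 26.4 and 33.2 RPM in m6A and 2, 6 and 0 reads in IgG (log2 2.59 ± 0.62, adjusted p 0.0094, edgeR). In the IgG library of FTO3C3, a count of 0 allows a level of up to 16.1 RPM, still below the m6A level there. With TMM factors the adjusted p of miR-520a-5p was 0.0527 and with DESeq2 0.0771.

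Another 5 miRNAs passed with smaller differences. miR-520g-5p had 42.1, 41.8 and 51.5 RPM in m6A against 9.44, 8.9 and 16.1 RPM in IgG (log2 2.06 ± 0.42, adjusted p 0.00444, edgeR), with no overlap, and was not called with DESeq2 (1.25, adjusted p 0.119). miR-498 had 22.8, 30.8 and 33 RPM in m6A against 10, 3 and 0 reads in IgG (log2 2.08 ± 0.65, adjusted p 0.0323, edgeR). miR-518c-5p had 14, 15.4 and 16.3 RPM in m6A against 4, 3 and 1 reads in IgG (log2 1.67 ± 0.57, adjusted p 0.0454, edgeR). For both, the IgG values stand on few reads. miR-498 did not pass without FTO2D4 (1.52, adjusted p 0.229) or FTO3C3 (1.73, adjusted p 0.106), with TMM factors (1.28, adjusted p 0.144) or with DESeq2 (1.47, adjusted p 0.162). miR-518c-5p did not pass without FTO1C1 (1.87, adjusted p 0.15) or FTO3C3 (1.67, adjusted p 0.0847) or with TMM factors (0.89, adjusted p 0.246).

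miR-1323 had 29.9, 57.2 and 53.1 RPM in m6A against 12.1, 15.3 and 32.2 RPM in IgG, groups that overlapped (log2 1.36 ± 0.42, adjusted p 0.0287, edgeR). miR-516b-5p had 54.4, 47 and 66.8 RPM in m6A against 17.5, 17.8 and 37.5 RPM in IgG (log2 1.31 ± 0.38, adjusted p 0.0229, edgeR). Neither miR-1323 (0.61, adjusted p 0.242) nor miR-516b-5p (0.55, adjusted p 0.253) passed with TMM factors. Without FTO1C1, FTO2D4 and FTO3C3 in turn, the adjusted p was 0.0584, 0.171 and 0.0515 for miR-1323 and 0.112, 0.0995 and 0.051 for miR-516b-5p. miR-512-3p had 19.3, 108.6 and 24.5 RPM in m6A against 17.5, 22.9 and 16.1 RPM in IgG, and only FTO2D4 was far apart (log2 1.21 ± 0.52, adjusted p 0.0941, edgeR). Without FTO1C1 it passed, at 1.76 with an adjusted p of 0.0199.

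At the other end stood miR-518b and miR-522-3p, which were lower in m6A than in IgG in 3 of 3 clones. miR-518b had 22.8, 38.9 and 35.2 RPM in m6A and 29.7, 49.6 and 75.1 RPM in IgG (log2 -0.60 ± 0.36, adjusted p 0.221, edgeR). For miR-522-3p the levels were 131.7, 104.2 and 120.2 RPM in m6A and 138.9, 193.2 and 139.5 RPM in IgG (log2 -0.40 ± 0.32, adjusted p 0.355, edgeR), with every m6A library below every IgG library. Both were called lower with TMM factors, at -1.35 (adjusted p 0.0148) and -1.15 (adjusted p 0.0261). miR-512-5p (log2 -0.06 ± 0.46, adjusted p 0.986) and miR-523-3p (log2 0.02 ± 0.44, adjusted p 0.98) had edgeR differences near 0, and the sign of each changed under some alternatives.

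**Figure D4:**
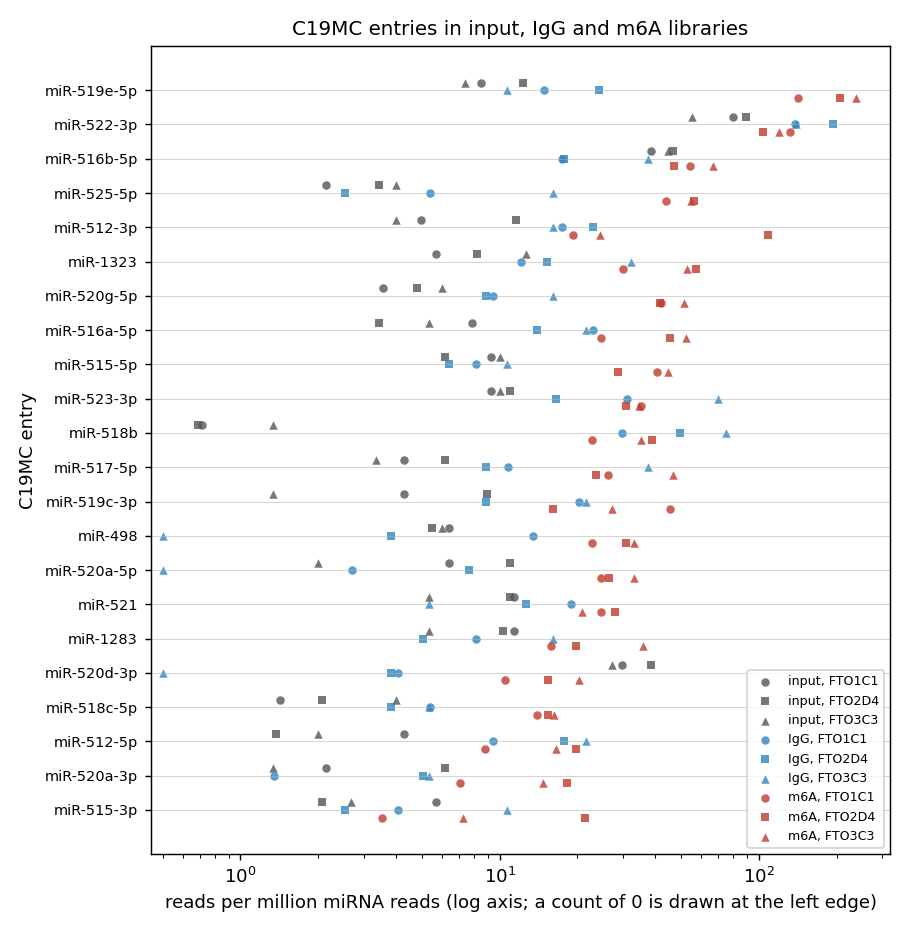
Level of each of the 22 C19MC miRNAs in the 9 RIP libraries, in RPM on a log axis (horizontal), ordered by the m6A mean, with colour for input, IgG or m6A and shape for the clone. The red m6A points of miR-519e-5p, miR-525-5p, miR-520g-5p and miR-515-5p stand apart to the right, the blue IgG points of miR-518b lie far right of its input points near 1, and those of miR-520d-3p lie left of its input points.

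By arm, the miRNAs called higher in m6A than in IgG were 7 of the 10 tested 5p miRNAs, 0 of the 4 tested 3p miRNAs and 2 of the 5 without an arm in the name. Among all miRNAs tested, 43.7% of 717 tested 5p names and 29.8% of 641 tested 3p names were higher, so the lower share of 3p names was not limited to the cluster. With TMM factors 4 of the 10 5p miRNAs were higher, against 26.1% of tested 5p names, and with DESeq2 2 of 9 with an adjusted p, against 19.4%. The 5 without an arm then gave 0 higher with either tool. Of the 4 tested 3p miRNAs 1 had an unadjusted p under 0.05, and 0 were higher with TMM factors or DESeq2. The filter had left out 3 others of that arm, of which miR-520a-3p (log2 1.85 ± 0.65, adjusted p 0.0481, edgeR) and miR-520d-3p, but not miR-515-3p, were higher in the fit without the filter. The summed 5p level of the cluster was 421.4, 511.5 and 620.1 RPM in m6A and 106.6, 111.9 and 177 RPM in IgG. The summed 3p level was 252.9, 314.8 and 248.7 RPM in m6A and 217.1, 253 and 262.8 RPM in IgG. The 5p sums did not overlap and the 3p sums did. These sums do not depend on that filter, while the counts by arm rest on miRNAs that could enter through m6A levels alone. The sums lean on single miRNAs, however. Of the 3p sums, miR-522-3p held 131.7, 104.2 and 120.2 RPM in m6A and 138.9, 193.2 and 139.5 RPM in IgG. Of the 5p sums, miR-519e-5p held 142.2, 206.9 and 237.5 RPM in m6A and 14.8, 24.2 and 10.7 RPM in IgG. The contrast of the arms without them was not tested.

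The letters GAC or AAC, the core of the sequence in which m6A is commonly found in mRNA, were found in 4 of the 24 matched miRNAs (miR-1323, miR-520a-3p, miR-521 and miR-523-3p), against 36.1% of all 2370 mature names. Among the matched miRNAs higher in m6A than in IgG they were found in 1 of 8, and among those tested and not called in 2 of 9. The printed sequences of miR-519e-5p, miR-515-5p, miR-525-5p and miR-520a-5p do not hold them.

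Against input, 18 of the 21 miRNAs tested were higher in m6A and 1 was lower (edgeR, adjusted p under 0.05), against 66.8% higher and 10.5% lower among 2174 miRNAs. The median log2 fold change was 2.39 over the cluster and 1.65 over all miRNAs tested. TMM factors moved the median of all miRNAs to 0.10 and left 7 higher and 3 lower, against 26.4% and 28.2%. The m6A libraries are shared between this comparison and that with IgG, and the input libraries between this one and the next.

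The largest m6A to input differences were those of miR-518b, miR-519e-5p and miR-525-5p. miR-518b had 1, 1 and 2 reads in input (0.71, 0.685 and 1.33 RPM) and 22.8, 38.9 and 35.2 RPM in m6A (log2 5.04 ± 0.58, adjusted p 2.39e-08, edgeR). miR-519e-5p differed by 4.37 ± 0.47 and miR-525-5p by 3.99 ± 0.45 on the log2 scale, both with no overlap. The lower one was miR-520d-3p, with 10.5, 15.4 and 20.3 RPM in m6A against 29.8, 38.4 and 27.3 RPM in input (log2 -1.0 ± 0.39, adjusted p 0.0231, edgeR). That call was lost without FTO1C1 (-0.84, adjusted p 0.107), without FTO2D4 (-0.84, adjusted p 0.167) and with totals without miR-6080 (-0.54, adjusted p 0.269). miR-516b-5p (log2 0.37 ± 0.39) and miR-522-3p (log2 0.69 ± 0.40) were not called, and with TMM factors both were called lower, at -1.19 (adjusted p 0.00936) and -0.86 (adjusted p 0.0316). With totals without miR-6080, in contrast, miR-522-3p was called higher, at 1.15 (adjusted p 0.0204). miR-1283 was higher in m6A than in input (log2 1.43 ± 0.47, adjusted p 0.00699, edgeR), but not without FTO3C3 (0.73, adjusted p 0.189), and it turned to -0.11 with TMM factors and -0.16 with DESeq2.

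Precipitation with IgG alone also set the members apart. Of the 13 tested, 6 were higher in IgG than in input and 1 was lower (edgeR, adjusted p under 0.05), against 36.8% higher and 21.8% lower among 1941 miRNAs. Without FTO1C1 or without FTO3C3 the number higher was 3, and without FTO3C3 the number lower was 2. The median log2 fold change was 1.07 over the cluster and 0.49 over all miRNAs tested. With TMM factors, which moved the median of all miRNAs to -0.02, 4 were higher and 2 lower, against 28.8% and 30.2%.

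miR-518b had by far the largest difference, from 1, 1 and 2 reads in input to 29.7, 49.6 and 75.1 RPM in IgG (log2 5.63 ± 0.68, adjusted p 3.35e-15, edgeR). The others that were higher were miR-512-5p at 2.53 ± 0.68, miR-516a-5p at 1.80 ± 0.59, miR-523-3p at 1.70 ± 0.52, miR-512-3p at 1.45 ± 0.58 and miR-522-3p at 1.07 ± 0.44 on the log2 scale. Of these, miR-512-3p and miR-522-3p were not called with TMM factors (adjusted p 0.0845 and 0.201). With DESeq2 neither these 2 nor miR-516a-5p (1.23, adjusted p 0.156) and miR-523-3p (1.09, adjusted p 0.123) were called. miR-522-3p did not pass without FTO1C1, FTO2D4 or FTO3C3 (adjusted p 0.14, 0.0909 and 0.0694). Without FTO1C1 and FTO3C3 in turn, the adjusted p was 0.189 and 0.0593 for miR-512-3p and 0.058 and 0.0784 for miR-523-3p.

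miR-520d-3p went the other way. It had 42, 56 and 41 reads in input and 3, 3 and 0 reads in IgG, or 29.8, 38.4 and 27.3 RPM against 4.05, 3.81 and 0 RPM (log2 -3.26 ± 0.68, adjusted p 6.09e-06, edgeR). In the smallest IgG library, that of FTO3C3, a count of 0 allows up to 16.1 RPM. Over the 3 RIP groups miR-520d-3p was thus highest in input, lower in m6A and lowest in IgG. Low counts, with 10.5 RPM in m6A of FTO1C1, kept it out of the filtered fit of m6A against IgG. In the fit without that filter the difference was 2.06 ± 0.69 on the log2 scale (adjusted p 0.0409, edgeR), and in the fit without FTO1C1 the adjusted p was 0.0555. miR-516b-5p was also lower in IgG than in input in 3 of 3 clones (log2 -0.97 ± 0.52, adjusted p 0.098, edgeR), without passing the test. It passed without FTO3C3 (-1.26, adjusted p 0.0355), with TMM factors (-1.49, adjusted p 0.00321) and with DESeq2 (-1.56, adjusted p 0.00783), whereas totals without miR-6080 turned it to 0.17.

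The relatives outside the cluster differed among themselves in the RIP libraries. miR-372-3p was higher in m6A than in IgG (log2 2.81 ± 0.37, adjusted p 0.000434, edgeR), while miR-373-3p was not called (log2 -0.62 ± 0.43, adjusted p 0.283). Beside the 38.6% of all miRNAs tested, 3 of 7 of the neighbouring cluster were higher in m6A than in IgG, of miR-302 and miR-367 0 of 5, and of the miR-17 family 3 of 4. For the other lists this was 3 of 4 kidney line, 3 of 6 blood, 1 of 2 muscle and 0 of 2 neuronal miRNAs, and 0 of these lists' members were lower.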

How the data were processed

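The authors deposited read counts per mature miRNA, without normalization. Per the methods of the study, cutadapt removed the adapters at a 4 bp overlap and 20% error. Trimmed reads between 16 and 28 bp long went to the miRBase release 20 sequence with the most matching bases, where exact matches had a minimum of 7 bases and together covered 17 or more. Libraries were amplified by PCR without molecular identifiers, so limits set by counts of 0 (3 reads) cover counting error only. RPM were calculated here on each library's total of miRNA reads.

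Each comparison was fitted over all miRNAs with edgeR 4.0.16 (R 4.3.3), glmQLFit and glmQLFTest, with total miRNA reads as library sizes, filterByExpr at a minimum count of 10, the clone as a block, and Benjamini-Hochberg adjustment at 0.05. SEs were derived from the F statistic. The test was checked on simulated counts. The clone pairs the libraries, since those of one name come from one clone. Paired deviations from the group means correlated at 0.189, 0.121 and 0.16 for the siRNA libraries, at 0.0117, 0.0313 and 0.037 for m6A and IgG, at -0.0284, -0.0667 and -0.0711 for m6A and input, and at 0.0661, -0.0273 and 0.0406 for IgG and input. Libraries of a group differed by more than sampling noise (chi-square per degree of freedom 7.79 to 166.5).

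Alternatives were TMM factors, DESeq2 1.42.0, no filter, no block, each clone left out, totals without miR-6080 and other RPM cutoffs. Ratios over IgG set a count of 0 to 3 reads. miRNAs were named when called, when among the 5 highest of a group or the 3 largest differences in a direction, or when past the RPM rules, and related ones were added for shared seeds. The lists were miR-371 to miR-373, miR-302 and miR-367, the miR-17 family, and kidney line, blood, liver, muscle and neuronal miRNAs. Members and lists were chosen with earlier results of these data known. Sequences are from RefSeq, and 0 count columns were left unmapped.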

Additional observations from a re-analysis of the deposited data

How the results depend on the processing

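Of 425 combinations of a named fold change and an alternative, 316 kept their direction and their side of the threshold, 67 lost and 14 gained a call with the direction kept, and 28 changed sign. For FTO siRNA against scrambled siRNA the 1 higher miRNA became 0 with TMM factors, DESeq2 and no replicate block, and 0 to 2 with clones left out. For m6A against IgG the 9 higher became 4 with TMM factors, 2 with DESeq2 and 4 with totals without miR-6080, and 5 to 8 with clones left out, and the 0 lower became 2 under each of these 3 alternatives. For m6A against input the 18 higher became 7 (TMM) and 4 (DESeq2), the 1 lower became 3, 3 and, without miR-6080, 0, and 0 to 1 with clones left out. For IgG against input the 6 higher became 2 (DESeq2), 12 (without miR-6080) and 3 to 7 with clones left out, and the 1 lower became 2 (TMM and DESeq2) and 1 to 2. In the paired comparisons of the RIP libraries, the fits without the replicate block gave 11 higher in m6A than in IgG, 18 higher than input and 6 higher in IgG than in input. Expressed miRNAs numbered 12 at a cutoff of 5 RPM and 2 to 4 with clones left out, and 13 met the m6A rule at 15 RPM. Totals without miR-6080 moved the mean summed level to 343.2 RPM in input, 1368 in IgG and 1702 in m6A. The causes were not tested.

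The sign changed in the following cases. After FTO siRNA, miR-519c-3p went to -0.18 (TMM), -0.15 (DESeq2) and -0.21 to 0.60 with clones left out, miR-520d-3p to -0.10 (TMM), -0.10 (DESeq2) and -0.25 to 0.42 with clones left out, and miR-520g-5p to 0.00 without the block and -0.27 to 0.39 with clones left out. For m6A against IgG, miR-512-5p went to 0.10 without the block and -0.25 to 0.06 with clones left out, and miR-523-3p to -0.72 (TMM), -0.76 (DESeq2), -0.66 (without miR-6080) and -0.42 to 0.53 with clones left out. For m6A against input, with TMM and DESeq2 in turn, miR-1283 went to -0.11 and -0.16, miR-516b-5p to -1.19 and -1.21, miR-521 to -0.06 and -0.09, and miR-522-3p to -0.86 and -0.88. For IgG against input, miR-1283 went to 0.91 and miR-516b-5p to 0.17 without miR-6080, and miR-1283 ranged from -0.72 to 0.23 with clones left out. Depth limits most members, with a median of 6 reads in the IgG libraries.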
